A study of Mus musculus with 21 samples.

Results

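Gm-numbered genes are mouse loci that were predicted from the genome and carry a provisional symbol, Gm followed by digits, until their function is known. The 621 probes described here, of 582 such genes, are those that hold values in the normalized table the study deposited for its long non-coding RNA (lncRNA) probes. They were picked by symbol alone, whatever their signal, out of the 3668 probes with values in that table and the 55681 probes of the array. The whole array carries 3332 probes of 2939 Gm-numbered genes, so that the table covers only some of them. Within the set, 546 genes have 1 probe, 33 have 2 and 3 have 3.

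The samples were single myofibers of untreated CD1 mice aged 3 months. The sample labels give these mice as male, and the study's methods give female mice. Type 1 myofibers (n = 11, slow and oxidative) came from the soleus and type 2B myofibers (n = 10, fast and glycolytic) from the extensor digitorum longus (EDL), so fiber type and muscle cannot be told apart in this design. Of the 9 mice, 6 gave type 1 and 6 gave type 2B myofibers, 3 gave both, and mouse 3 alone gave 7 of the 21. A part of each myofiber was typed by its myosin heavy chain (MyHC) protein on a gel, and the RNA of the rest was amplified by PCR and hybridized to an Agilent single-color array of its own. Such a product holds both strands, so RNA from a gene and from a gene on the opposite strand cannot be told apart.

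Many Gm-numbered loci are processed pseudogenes: an mRNA was copied back into the genome, and the copy decayed without the introns and promoter of its parent. Enzymes of glycolysis and ribosomal proteins, whose mRNAs are abundant, left many such copies. A pseudogene may be silent, may be transcribed as a non-coding RNA, or may keep an open reading frame. Because it resembles its parent, a 60-base probe designed for it may also bind the parent's RNA, which in muscle can be far more plentiful. Other Gm-numbered loci are lncRNAs, named from cDNA clones, with no coding relative.

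The sequences below are those of the probes on which the results turn, as the scanner files give them, with positions on the mouse build mm9. The first are the probes of 5 members with large differences between the types: Gm5532 at chr1:157367304-157367363 (minus strand, an lncRNA in RefSeq), Gm6548 at chr17:79250216-79250275 (minus, a transcribed pseudogene), Gm12680 at chr4:85428217-85428276 (plus, no RefSeq match), Gm4665 at chr9:115089611-115089670 (minus, an lncRNA) and Gm14470 at chrX:10258406-10258464 (plus, a pseudogene).
Gm5532: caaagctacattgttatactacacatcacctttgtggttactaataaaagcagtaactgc
Gm6548: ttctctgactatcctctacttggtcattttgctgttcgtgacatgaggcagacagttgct
Gm12680: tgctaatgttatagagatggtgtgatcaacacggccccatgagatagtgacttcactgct
Gm4665: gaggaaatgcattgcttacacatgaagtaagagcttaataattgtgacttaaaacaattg
Gm14470: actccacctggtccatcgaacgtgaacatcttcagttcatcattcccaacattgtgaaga

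The next are shown because they carry nearly the same letters as a probe of another gene; capitals mark the bases that differ where the probes overlap. Gm8055 (chr10:39732025-39732084, plus) shares 51 of 54 overlapping bases with a probe of Gapdh (chr6:125112979-125113038, minus), the glycolytic enzyme glyceraldehyde-3-phosphate dehydrogenase. Gm10105 (chr9:35396836-35396895, minus) shares 54 of 57, and Gm5899 (chr7:101345912-101345971, plus) 44 of 45, with probes of Hmgn2, a nucleosome-binding chromatin protein. Those 2 Hmgn2 probes lie at chr4:133522388-133522894, a span that crosses an intron, and at chr4:133521866-133521925, both on the minus strand. Gm3534 (chr12:15735842-15735901, plus) and Gm5327 (chr7:33331710-33331769, plus) are both members, and share 50 of 53.
Gm8055: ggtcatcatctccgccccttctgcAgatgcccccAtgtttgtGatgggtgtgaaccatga
Gapdh: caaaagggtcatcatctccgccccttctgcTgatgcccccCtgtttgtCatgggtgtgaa
Gm10105: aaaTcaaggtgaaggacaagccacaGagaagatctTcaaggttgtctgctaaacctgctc
Hmgn2: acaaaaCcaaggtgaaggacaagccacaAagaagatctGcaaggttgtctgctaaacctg
Gm5899: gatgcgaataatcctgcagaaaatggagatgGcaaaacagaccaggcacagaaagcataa
Hmgn2: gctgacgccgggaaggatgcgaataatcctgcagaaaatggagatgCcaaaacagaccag
Gm3534: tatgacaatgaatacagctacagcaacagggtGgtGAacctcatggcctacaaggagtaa
Gm5327: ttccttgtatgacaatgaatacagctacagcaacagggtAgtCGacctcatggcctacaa

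The arrays differed in how much they detected. Feature Extraction flagged 38.7% to 79.8% of an array's spots as well above background and none as saturated. The slow and fast contractile genes followed the labels at each of their tested probes, 13 of 13 higher in type 1 for the slow list (Myh7, Tnni1 and others) and 13 of 13 higher in type 2B for the fast list (Myh4, Pvalb and others). A single type 1 myofiber, S6.4, stood apart, with a log2 signal of 9.22 for Myh7 against 15.53 to 16.28 in the other 10, and of 15.22 for Myh2, the type 2A myosin, against at most 13.03. It was kept as labelled, and the counts of called members and of pairs past the threshold are also given without it. The ranges over myofibers include it. In the deposited table, E13.3 and E12.5 each follow the scanner output of the other. The scanner output was used here, and leaving out both together with S6.4 is among the alternatives.

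Detection varied widely among the members. Of the 621, 282 were well above background in every myofiber, 282 in some, and 57 in none. By the RefSeq type of the gene, 146 of the 192 pseudogene members were above background in every myofiber, and 38 of the 169 lncRNA members. Of 79 members that RefSeq gives as protein-coding genes, 26 were, and of 132 with no RefSeq match, 45. These are counts per probe, and with arrays as the only measure the number of arrays limits their precision.

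Few members were detected in a single type. Above background in at least 1 type 1 myofiber and in no type 2B myofiber were 33, and the reverse held for 17. Gm5532 was the 1 member above background in all 11 type 1 myofibers and in none of the 10 of type 2B, and no member showed the reverse. Among members detected in a single type, Gm10649 came next with 7 type 1 myofibers, and none of the others passed 4. Of the 17 with type 2B alone, none was detected in more than 2 myofibers. The same counts were not made over all probes of the array, so whether the members differ from it in this was not tested.

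Which members differed between the types was tested with limma on log2 normalized signal over all 46928 probes that passed the detection filter, with Benjamini-Hochberg (BH) adjustment over them all. Of these probes 7.57% were called, 3.48% higher in type 2B and 4.09% higher in type 1. Among the 534 members tested, 50 (9.36%) were called, 37 (6.93%) of them higher in type 2B and 13 (2.43%) higher in type 1. Their median difference was 0.02 on the log2 scale, type 2B minus type 1, against 0.03 over all probes. A difference of at least 1 in either direction was held by 45 members (8.43%) and by 5852 of all 46928 probes. The members thus lay near the array as a whole in total calls, above it in calls higher in type 2B and below it in calls higher in type 1. After Bonferroni adjustment, which 1.43% of all probes passed, 3 members were left: Gm5532, Gm14470 and Gm5327. That count was 12 with scaling to the 75th percentile and 12 with normexp background correction, and 1 with means per mouse or without mouse 3.

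**Figure D1:**
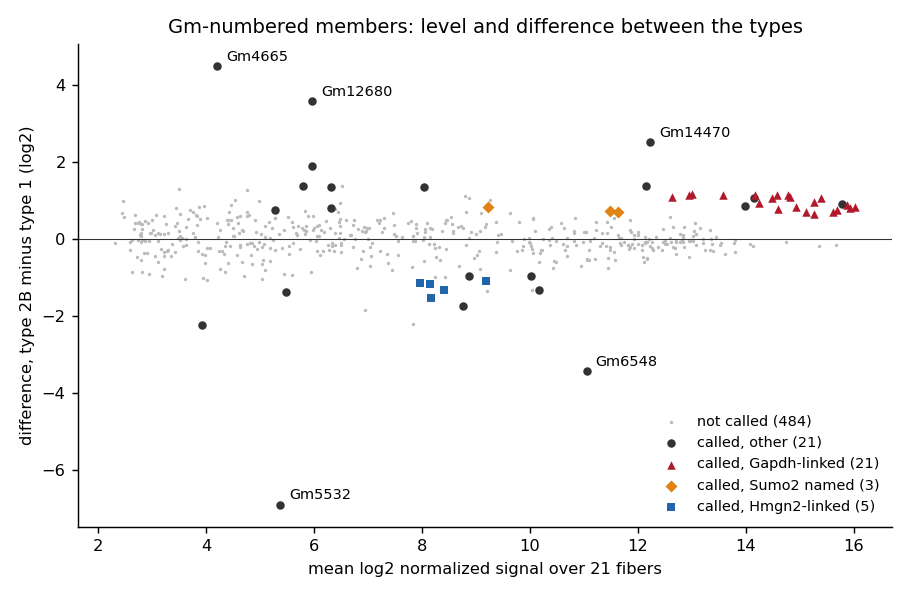
The difference between the types (type 2B minus type 1, log2) against the mean log2 signal over 21 myofibers for the 534 members tested, by whether they were called and by the family they belong to. The Gapdh-linked members form a tight group at high signal and a difference of 0.65 to 1.17, while Gm5532 and Gm4665, at the ends of the fitted differences, lie at low signal and were mostly not above background in one type.

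The 6 mouse means of one type lay apart from the 6 of the other for 33 members (6.18%), against 4.96% of all probes tested, and single myofibers lay apart for 11 (2.06%), against 1.34%. The other probes of the deposited table gave 192 calls of 2527 tested (7.60%), and the Gm-numbered probes outside it 120 of 2221 (5.40%). Within a type, the members varied less between myofibers than the array did. The median SD over myofibers was 0.601 in type 1 and 0.641 in type 2B for the members, against 0.749 and 0.818 for all probes.

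The called members fell into 2 kinds. Of the 50, 30 were linked by description, sequence or gene to 4 parent genes, and 20 had no such link. The families were put together after the values were seen, so their counts are a description. They are given first, then the 20 others.

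The Gapdh-linked members were the largest family, with 21 probes of 15 genes. Of these, 5 name Gapdh in their description, 11 share sequence with a probe that does, and 5 belong to the same gene or to a chain of such probes. Each of the 21 was higher in type 2B, with differences from 0.65 (Gm13464, SE 0.18, adjusted p = 0.0271) to 1.17 (Gm4795, SE 0.21, adjusted p = 6.69e-04) and a median of 0.95, an increase of 2.25-fold at the top. Fewer were called with the mouse as a fixed block (10), with means per mouse (12) or without mouse 3 (8), all 21 being higher in type 2B in each of these fits. Gapdh catalyses a step of glycolysis, the pathway on which fast glycolytic myofibers rely. The mouse means did not overlap for 11 of the 21 and the single myofibers for 5. Of the tested members outside this family, 29 (5.65%) were called, 16 higher in type 2B and 13 higher in type 1. Leaving out a family called at every member lowers this share by itself.

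Gm5327, one of the sequences printed above, read from 12.54 to 13.51 (median 12.99) on the log2 scale in type 1 and from 13.93 to 14.50 (median 14.16) in type 2B. The myofibers of the types did not overlap. Its difference was 1.15 ± 0.17 (SE; limma, adjusted p = 4.25e-05). Gm3534, which differs from it at 3 of the 53 overlapping bases, read from 13.89 to 15.08 (median 14.50) in type 1 and from 14.70 to 15.75 (median 15.46) in type 2B. Here the myofibers overlapped, and the difference was 0.84 ± 0.18 (adjusted p = 3.79e-03).

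Gm8055 read from 14.83 to 16.19 (median 15.71) in type 1 and from 16.04 to 17.01 (median 16.38) in type 2B, and the 2 ranges overlapped slightly. Its difference was 0.82 ± 0.20 (adjusted p = 9.01e-03). The Gapdh probe that matches it at 51 of 54 bases read from 14.68 to 16.01 (median 15.71) in type 1 and from 15.92 to 17.06 (median 16.35) in type 2B, with a difference of 0.87 ± 0.21 (adjusted p = 9.13e-03). The RNA behind the signal of such a member cannot be told apart from that of Gapdh.

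Of the 7 Gapdh probes, 6 were higher in type 2B, by 0.75 to 1.14. The other one had a spot at 1.74 in 1 type 2B myofiber, not well above background, while the remaining values of that type reached 16.78, and its difference was -0.46 ± 1.29 (adjusted p = 0.907). A further 35 tested probes joined to the family that are not members were each higher in type 2B as well, by 0.71 to 1.48. The members of the family with 3 probes each were Gm8709, at 0.93 to 1.09, and Gm6981, at 0.75 to 1.05, and each of these 6 probes was called. The Gm8709 probe at 0.93 lies at chr10:44726164-44726223, 412 bases from the Gm4795 probe, and the study's annotation gives it to Gm4795. The others of Gm8709 lie at chr10:26393492-26393550 and chr10:26393924-26393983. Type 1 varied more between myofibers than type 2B in this family: the median SD was 0.387 against 0.314, and type 2B was the wider group for 2 of the 21. Over all tested probes type 2B was the wider group for 57.5%. The 21 probes share sequence and arrays, so they are not separate measures of spread. S6.4 gave the highest type 1 value of Gm3534 (15.08), though not at any probe of Gm8709.

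**Figure D2:**
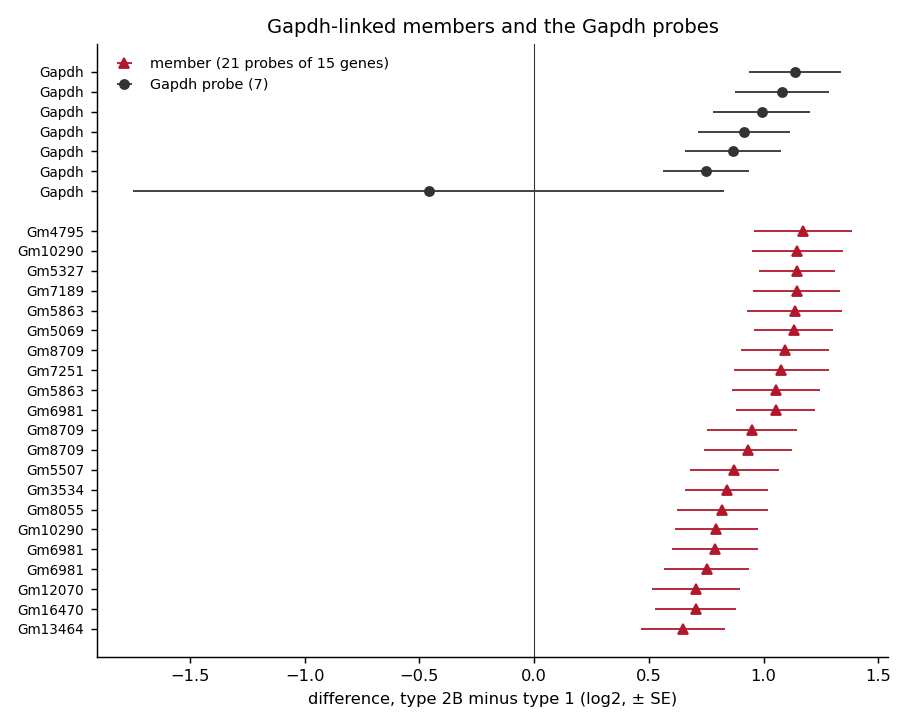
Difference between the types (type 2B minus type 1, log2, ± SE) for the 21 Gapdh-linked members and the 7 Gapdh probes. All members and 6 Gapdh probes lie between 0.65 and 1.17; the seventh Gapdh probe, at -0.46, holds 1 spot at 1.74.

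Hmgn2-linked members went the other way. All 5 probes, of Gm10105 (2 probes), Gm16510, Gm5899 and Gm6985, were higher in type 1, with differences of -1.52 to -1.09. The 4 probes of Hmgn2 were too, at -1.89 to -1.47. For Gm5899, which matches an Hmgn2 probe at 44 of 45 bases, type 1 ranged from 9.18 to 10.07 (median 9.69) and type 2B from 7.90 to 9.13 (median 8.60). No type 2B myofiber reached the lowest type 1 value, and the difference was -1.09 ± 0.18 (limma, adjusted p = 2.47e-04). The Hmgn2 probe in question lay at 9.17 to 10.46 in type 1, at 7.52 to 9.69 in type 2B, and differed by -1.53 ± 0.26 (adjusted p = 2.51e-04).

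For the Gm10105 probe printed above, type 1 ranged from 8.13 to 9.4 (median 8.98) and type 2B from 6.70 to 8.42 (median 7.31). The difference was -1.52 ± 0.23 (adjusted p = 7.46e-05), the mouse means did not overlap, and single myofibers did. Gm16510 had the next largest value of the family at -1.33 ± 0.23 (adjusted p = 4.54e-04). Again, RNA of these members and of Hmgn2 cannot be told apart by probes so alike.

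Gm11556 and Gm11829, described as copies of Sumo2, a small protein that is attached to other proteins to modify them, gave 3 probes, each higher in type 2B by 0.71 to 0.83. Of the 5 Sumo2 probes, 3 were called in the same direction, and the 5 spanned 0.41 to 0.97.

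Gm14470 is described as a relative of Ldha, the muscle subunit of lactate dehydrogenase, which turns the pyruvate of glycolysis into lactate. Its signal ranged from 9.36 to 11.89 (median 11.17) in type 1 and from 13.02 to 14.09 (median 13.50) in type 2B. The 2 types were well separated, and the difference of 2.51 ± 0.25 (5.71-fold; limma, adjusted p = 2.41e-07) was the largest of the members linked to a parent. The 3 Ldha probes were higher in type 2B by 1.26, 2.19 and 2.59, so the probes of the parent differed among themselves by more than their standard errors of 0.18 to 0.28.

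Outside these families, 8 members were higher in type 1. Gm5532, an lncRNA described from an embryonic heart cDNA clone, was the member detected in all of type 1 and none of type 2B. Its log2 signal ran from 8.21 to 9.27 (median 8.62) in type 1 and from 1.63 to 2.54 (median 1.66) in type 2B, where no myofiber was well above background. The value in type 2B is therefore only a bound, and Gm5532 was at least 17.2-fold higher in type 1 (limma, adjusted p = 5.40e-18). That bound sets the type 1 mean against the lowest signal that was well above background on each type 2B array. Type 1 was also the higher type within each of the 3 mice that gave both. In S6.4, the myofiber with little Myh7, Gm5532 read 8.90, inside the range of the other type 1 myofibers.

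Gm6548, listed as a transcribed pseudogene, ran from 11.07 to 14.45 (median 12.71) in type 1. In type 2B it ran from 6.38 to 12.69 (median 8.66), the SD there being 2.06 against 0.918 in type 1. The mouse means did not overlap although single myofibers did, and the difference was -3.42 ± 0.64 (limma, adjusted p = 9.07e-04). S6.4 gave the lowest type 1 value of this member. The study's annotation gives its probe to another gene, Gm13456.

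Gm10649, an lncRNA, was well above background in 7 type 1 myofibers and in none of type 2B. It ran from 1.82 to 7.65 (median 5.03) in type 1 and from 1.79 to 4.48 (median 2.33) in type 2B, and was at least 1.35-fold higher in type 1 (adjusted p = 0.0128). Gm6594, a pseudogene, ran from 8.93 to 10.11 (median 9.44) in type 1 and from 6.4 to 8.95 (median 8.11) in type 2B, a difference of -1.74 ± 0.32 (adjusted p = 6.39e-04). The ranges of Gm6594 met only at their edges, where S6.4 had the lowest type 1 value. The other 4 were the lncRNAs Gm11190 (-1.36 ± 0.35, adjusted p = 0.0153) and Gm14340 (-0.96 ± 0.27, adjusted p = 0.0277), the pseudogene Gm6684 (-1.33 ± 0.27, adjusted p = 2.28e-03) and Gm4524 (-0.97 ± 0.24, adjusted p = 0.0101), which has no RefSeq match. All 4 overlapped between the types over single myofibers.

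Outside the families, 12 members were higher in type 2B. Gm12680, known from a retina cDNA clone, ran from 2.02 to 5.31 (median 4.61) in type 1, where 6 of 11 myofibers were well above background. In type 2B it ran from 5.68 to 10.59 (median 7.58) and each of the 10 was above background. The types did not overlap, and the difference was 3.57 ± 0.56 (limma, adjusted p = 1.19e-04).

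Gm4665, an lncRNA from a testis clone, was singled out after its values were seen, since its mouse means overlapped. It was well above background in 1 type 1 myofiber and in 7 of type 2B. It ran from 1.65 to 5.78 (median 1.71) in type 1 and from 2.20 to 10.47 (median 6.58) in type 2B, an uneven spread with an SD of 2.15 in type 2B. The fitted difference was 4.49 ± 0.71 (limma, adjusted p = 1.19e-04). With 10 of the 11 type 1 values not well above background, its size depends on the floor of those arrays.

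Of the remaining 10, Gm3235 (1.89 ± 0.41, adjusted p = 3.40e-03), Gm13315 (1.38 ± 0.29, adjusted p = 2.62e-03), Gm13520 (1.37 ± 0.21, adjusted p = 1.04e-04), Gm6033 (1.35 ± 0.27, adjusted p = 1.46e-03) and Gm11677 (1.35 ± 0.22, adjusted p = 1.84e-04) had mouse means that did not overlap. RefSeq gives Gm6033 as Trav13n-3, a variable segment of the T cell receptor alpha chain, and its probe was well above background in each of the 21 myofibers. Among blood cell markers, 0 of 5 tested probes were called. The log2 of their summed signal peaked at 13.08 among type 1 myofibers, against a peak of 9.61 for type 2B. The lowest sums were 8.50 and 8.635. Whether blood cells contributed to the signal of Gm6033 was not tested. Gm9034 (1.06 ± 0.17, adjusted p = 1.85e-04) and Gm6498 (0.86 ± 0.18, adjusted p = 2.20e-03) were the 2 whose single myofibers did not overlap, and both are pseudogenes. Gm10313, Gm13112 and Gm15318 differed by 0.91, 0.79 and 0.74.

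**Figure D3:**
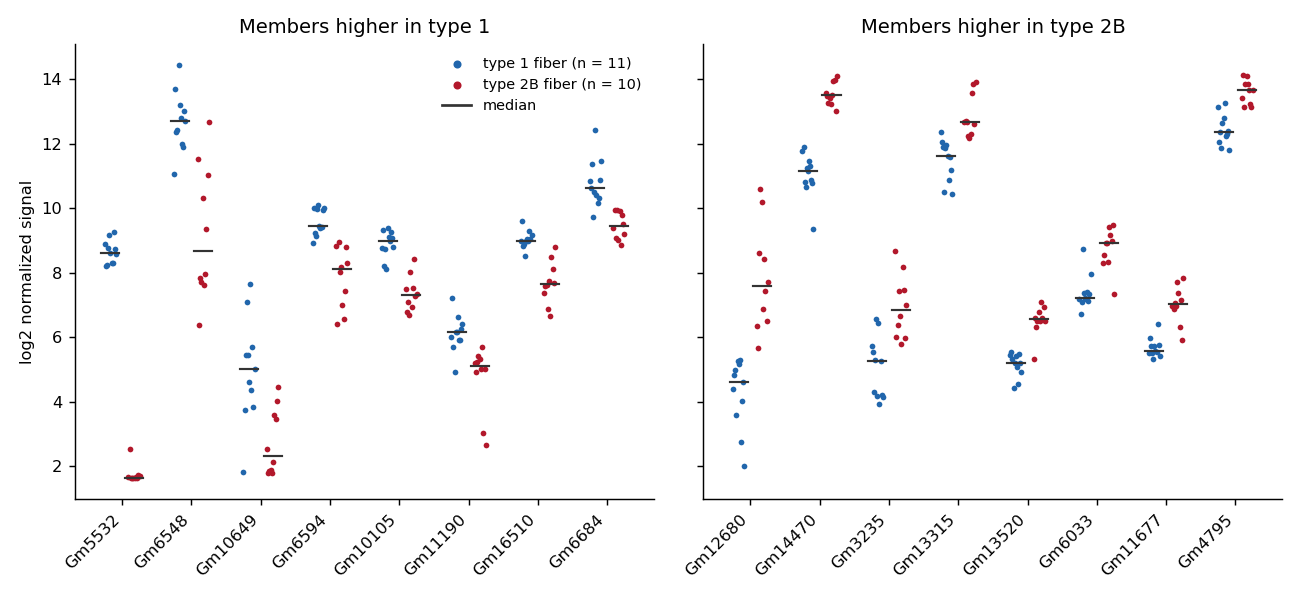
Log2 normalized signal in each of the 11 type 1 and 10 type 2B myofibers, with the median as a line, for the 8 members with the largest differences in each direction whose mouse means do not overlap. Gm5532, Gm12680 and Gm14470 show no overlap between myofibers, and Gm6548 spreads most in type 2B.

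Markers of other cells that could cling to a myofiber were read as well, as the log2 of their summed signal, in which the brightest probe weighs most. Endothelial (0 of 5 tested probes called), blood and adipocyte (0 of 4) markers gave no call. Ncam1, of the satellite cell list, was higher in type 1 at each of its 3 tested probes (-2.50 to -2.08). The others of the list's 5 tested probes were not called. The list's summed signal was 10.64 to 13.05 in type 1 against 9.34 to 12.17 in type 2B. Myf5 was never above background. Col3a1 of the connective tissue list (1 of 4, -2.45) and Mbp of the nerve and Schwann cell list (1 of 7, -1.41) were higher in type 1, while Pdgfra was never above background. The connective tissue list summed to 8.13 to 12.21 in type 1 and to 7.73 to 9.43 in type 2B, and the nerve list to 8.47 to 10.25 and to 8.55 to 9.70. The part of such cells in the members higher in type 1 was not tested.

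The direction of the calls was the same in nearly all smaller comparisons. Within mouse 3 (3 and 4 myofibers) and within slides 1, 2 and 5, the slides that held both types in like number, all 50 called members kept their direction. Within mouse 4 and within mouse 9, with 3 and 2 myofibers, 49 of 50 did. These myofibers are among those that gave the calls, so a like direction is largely built in and is no separate support. The calls themselves leaned on mouse 3. Without it 28 members were called, 25 of them among the 50, 17 higher in type 2B and 11 higher in type 1. Without S6.4 there were 55 calls, 37 and 18.

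Calls were spread unevenly over the kinds of gene. Of the members that RefSeq gives as pseudogenes 26 of 182 tested were called, and of those given as transcribed pseudogenes 11 of 40 (27.5%). Members given as lncRNAs had 7 of 132 (5.30%), protein-coding ones 1 of 63 (1.59%), and those without a match 4 of 113 (3.54%). The 4 families above held 22 of the 26 and 8 of the 11. Outside them 4 of 160 pseudogenes (2.50%) and 3 of 32 transcribed pseudogenes (9.38%) were called, against 7.57% of all probes. Every member of the families was called, so leaving them out lowers these shares by itself. They are a description, since no family was taken out of the share over all probes. Among the lncRNA members 3 were higher in type 2B (Gm4665, Gm13112 and Gm15318) and 4 in type 1 (Gm5532, Gm10649, Gm11190 and Gm14340).

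**Figure D4:**
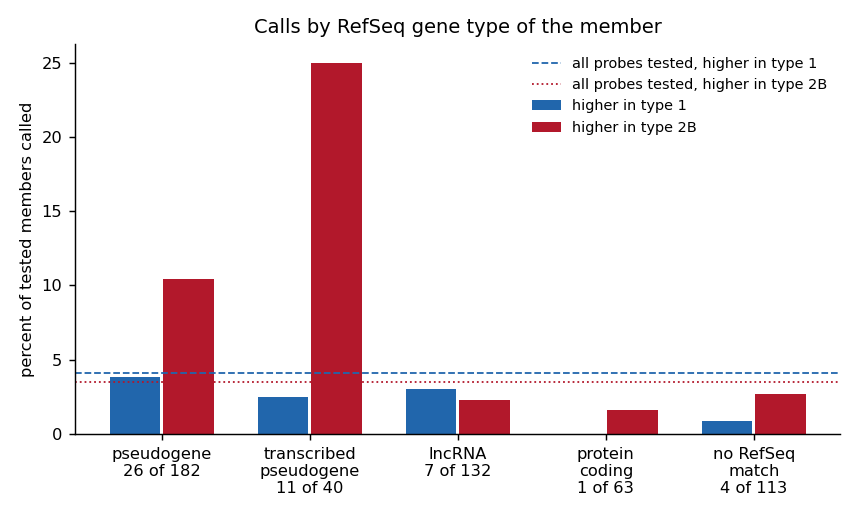
Percent of the tested members called higher in type 1 and higher in type 2B, by the RefSeq type of the gene, with the shares over all 46928 probes as lines. Transcribed pseudogenes (11 of 40) and pseudogenes (26 of 182) hold most of the calls, nearly all of the excess being higher in type 2B.

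Shared sequence was counted over all members. Of the 621 members, 138 overlapped another probe of the array by at least 30 bases at 90% identity or more, 130 of them a probe that is not a member, in 100 families. Among the 135 joined members that were tested 24 (17.8%) were called, among the 399 not joined 26 (6.52%), and among all probes 7.57%. Not joined means only that no other probe of the array overlapped that far. The called copies of Sumo2 and Ldha are among the members not joined, so the contrast is not one of copies against other genes. Of those 24, 23 belong to the families above, and outside these 1 of 112 joined members (0.893%) was called, Gm13315. The families were called at every member, so that share is lowered by leaving them out. Such a probe reads the RNA of its relatives to an extent that was not tested.

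Genes with several probes could be checked within themselves. Of 29 genes with at least 2 tested probes, 6 were called at every probe and 23 at none, and none was split. All 6 (Gm10105, Gm10290, Gm11556, Gm5863, Gm6981 and Gm8709) belong to the families linked to a parent. The study's annotation gives the probes of Gm8709 to Gm14148, Gm8709 and Gm4795, and those of Gm6981 to Gm8318, Gm12969 or no symbol. The agreement of such probes may therefore be one between relatives and not within 1 gene. The median gap between the differences of a gene's probes was 0.25 and the largest was 0.87, in Gm10319, whose 2 probes were at -0.31 and 0.56 and were not called. Gm4963, with 3 probes on chromosome 5, lay at 0.10, 0.24 and 0.21 with adjusted p = 0.891, 0.629 and 0.710, and probes of 1 gene may overlap in sequence.

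Neighbouring genes were looked up by the mm9 positions of the probes. Of the tested members placed on a chromosome, 128 had a tested probe of another gene within 5000 bases, and 8 of these neighbours (6.25%) were called. In 3 cases both were called, each time in the Gapdh family. Cases were counted per member, so members that are nearest to each other count from both sides. Among the 3 cases is Gm4795 beside the Gm8709 probe 412 bases away, which the study's annotation gives to Gm4795 as well. For the 20 called members with no family, 4 had such a neighbour and none of these was called. The nearest tested neighbour of Gm6548 was Eif2ak2 at 1893 bases, with a difference of -0.74 ± 0.62 (adjusted p = 0.596), and that of Gm5532 was Acbd6 at 38616 bases (0.25 ± 0.42, adjusted p = 0.828). Gm4524 lay 6881 bases from Leprel1, a collagen prolyl hydroxylase on the opposite strand, which was also higher in type 1, by far more (-6.71 ± 0.50, adjusted p = 1.90e-09).

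The descriptions of 120 members name a protein, and for 85 of them, of 79 genes, that parent has probes of its own on the array, 60 parents in all. In 81 pairs both the member and a probe of the parent were tested. The question was whether the member differs between the types in another way than the parent does. For each myofiber the mean log2 signal of the parent's probes was taken from that of the member, and the mouse means of the result were compared by an exact permutation test, two-sided, whose smallest p is 0.002165. The test could be made for 79 pairs. It does not pair the means of the 3 mice that gave both types.

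In 12 pairs, of 4 parents, the member and a probe of the parent were called in the same direction: 5 with Gapdh, 3 with Hmgn2, 3 with Sumo2 and 1 with Ldha. The difference of the differences ran from 0.05 to 0.66 in these pairs, and none of the 12 passed the test after BH adjustment over the 79 pairs. The Gapdh pairs carry the parent probe with the spot at 1.74. Against the brightest parent probe alone, which does not hold that spot, those 5 ran from -0.24 to 0.28.

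Gm14470 and Ldha came nearest. The member's difference exceeded the parent's mean by 0.66 (exact permutation p = 0.00433, adjusted over the 79 pairs 0.0684), and exceeded that of the brightest Ldha probe by 1.52. Of the other pairs, in 1 the member alone was called, in 3 a parent probe alone, and in 65 neither.

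The pairs past the threshold were 4, each at the smallest p that the test allows (exact permutation p = 0.002165, adjusted 0.0427). Gm10060 against Nsfl1c, a cofactor of the p97 ATPase, was at -1.19. By mouse means, as in the test, the member was at -1.34 and the single parent probe at -0.15. In the limma fits over myofibers the member was at -0.98 ± 0.47 (adjusted p = 0.267) and the parent probe at 0.11 ± 0.25, and neither was called. Gm11677 against the zinc finger gene Zfp93 was at 0.80, with the member at 1.29 and the parent at 0.49 by mouse means. In the limma fits the 2 tested parent probes lay at 0.56 and 0.80 and were not called. With the brightest Zfp93 probe alone, the p of Gm11677 was the same, and adjusted over the pairs it was 0.0534. Nsfl1c has no other probe to compare.

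A ribosomal pair, Gm13194 against Rpl36a, was at 0.59, with the member at -0.005 and the parent at -0.598 by mouse means. In the limma fits the member was at 0.05 ± 0.18 and the 3 Rpl36a probes at -0.74, -0.72 and 0.09. Against the brightest of these the pair was at -0.04 (exact permutation p = 0.186). The value thus depended on which parent probe was taken.

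**Figure D5:**
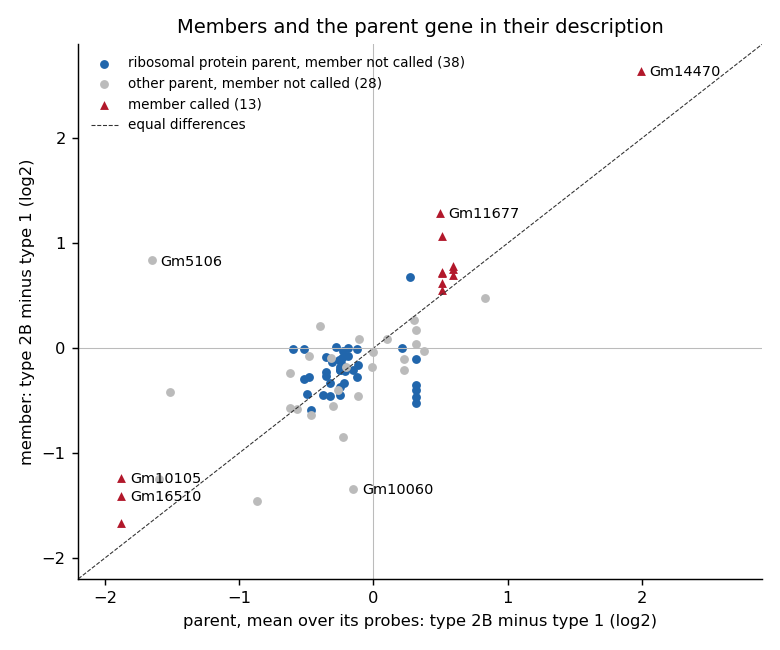
Difference between the types (type 2B minus type 1, log2, from mouse means) of each member against that of the parent in its description, averaged over the parent's probes; the dashed line marks equal differences. Called members lie at both ends, some of them, such as Gm11677 and Gm14470, above the line, and the ribosomal protein pairs gather near 0.

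Ribosomal protein copies made up 39 of the pairs, of 24 parents. None of the 39 members and none of their parents' probes was called, against 7.57% of all probes. The members' differences ran from -0.53 to 0.58 with a median of -0.11. Over the whole list of 84 ribosomal protein genes, 2 of 178 tested probes were called, both higher in type 1 (Rpl3 and Rplp0), and the median was -0.13. After the type means were taken off, the signals of a member and its parent over the myofibers had a Pearson r from -0.30 to 0.97 with a median of 0.58 over the 81 pairs, and a median of 0.73 over the ribosomal ones. These values are descriptive, since member and parent were read on the same arrays and may share RNA.

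Gm16062, an lncRNA for which the study had primers, ran from 4.45 to 10.91 (median 8.33) in type 1 and from 8.40 to 10.54 (median 9.27) in type 2B. The types overlapped widely, and the difference was 1.11 ± 0.56 (limma, adjusted p = 0.293). Within mouse 3 it was 3.03, and within mouse 9, with 1 myofiber of each type, -1.03.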

How the data were processed

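RNA of 21 single myofibers was measured on 1 Agilent array each. For each array the authors deposited the processed intensity of the scanner output (Feature Extraction 10.7.3.1), subtracted for background and detrended within the array, together with mean and local background intensity and flags per spot. They also deposited a quantile normalized table of intensity with values for 3687 of 62976 features. Its scale proved linear, and it served to choose the members and as an alternative.

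Here the processed intensity was quantile normalized between arrays and taken as log2 (the deposited values themselves are not log2). Spots with an outlier flag were left out, and spots of a probe were averaged. Probes flagged positive and significant in 50% or more of a type's arrays were tested with limma 3.58.1 in R 4.3.3, with the mouse as a random block (consensus correlation -0.0175) and a threshold of 0.05. The fit was tested on simulated data. Pairs were compared by the exact permutation test over the 924 groupings of 6 mouse means against 6.

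Parents were matched through the full gene names in the descriptions, through a gene symbol, or through a list of names made by hand. The symbol gave the match of Gm11677 with Zfp93. The hand list gave, among others, those of Gm14470 with Ldha, Gm10060 with Nsfl1c, and Gm10290 and Gm3534 with Gapdh. RefSeq (GRCm38.p6) gave names and types for 489 members and no coordinates. Some probes have another symbol in the study's annotation, among them those of Gm6548 (Gm13456), Gm3534 (Gm4804) and Gm10060 (Gm26853) and a probe of Gm10290 (Gm11953). The symbols of the scanner files were used here. No genome was used, so probes were not aligned again. Replicates are separate myofibers, some from the same mouse.

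Named are the 8 members with the largest difference in each direction among those called with separate mouse means, the 6 pairs with the smallest p and the 6 with the largest member difference where both passed, genes with 3 or more probes, members with primers, and members in counts of 5 or fewer. Of the 4 pairs past the threshold, 1 is not reported here. The members and lists were chosen with earlier results of these data known. The alternatives changed normalization, background, filters, mouse, slide, replicate number, threshold, test, table, parent probe, and the mice or myofibers included.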

Additional observations from a re-analysis of the deposited data

Results flagged for a closer look

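Of 68 groups examined, over 34 named members of 27 genes, 5 held a value far from the rest of its group by Dixon's criterion at the 95% level. Chance alone gives such a value in about 1 of 20 groups.

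The type 2B myofiber E10.4 had a log2 signal of 2.54 for Gm5532, where the next was 1.74, and neither was well above background. For Gm13520 the type 2B myofiber E13.3 read 5.32, where the next was 6.32. Mouse 10, which gave 1 myofiber, had the lowest type 1 mean of Gm14470 (9.36, the next being 10.77) and the highest type 1 mean at 1 of the 3 probes of Gm4963 (12.52, the next being 11.75). For Gm4665, mouse 2 had a type 1 mean of 3.05 where the next was 1.76. What sets these values apart was not tested.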

How the results depend on the processing

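Of the 50 called members, all kept their direction under every alternative but 1. With unflagged spots taken as missing, 47 did and the other 3, Gm5532, Gm4665 and Gm10649, could not be fitted. The number called was 37 to 55 under 14 alternatives, and 25 with the mouse as a fixed block (all 25 among the 50), 22 within slide 1, 0 within slide 2 and 0 within slide 5 (51 and 75 at an unadjusted p of 0.05 or less in limma), 3 with Bonferroni adjustment (0 to 19 under the other settings) and 6 with the methods' t-test and Bonferroni adjustment (52 after Benjamini-Hochberg). Leaving out 1 mouse gave 28 (mouse 3) to 54. For the Gapdh-linked members, called 21 of 21, the counts were 10 with the mouse fixed, 12 with means per mouse, 5 within slide 1, 0 within slides 2 and 5 (13 and 3 at an unadjusted p of 0.05 or less), 1 with Bonferroni, 3 with the t-test and Bonferroni, 13 in the deposited table, and 8 (mouse 3) to 21 without 1 mouse. For the Hmgn2-linked members they were 3 within slide 1, 0 within slides 2 and 5, 0 with either Bonferroni adjustment, and 4 to 5 without 1 mouse.

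The 4 pairs past the threshold became 0 with normexp (13 pairs at an unadjusted p of 0.05 or less), with no filter (10), within slide 1 (8, where 4 against 4 myofibers cannot pass), without S6.4 (11), without S6.4, E13.3 and E12.5 (11), with the brightest parent probe (6), with the mouse (10) or the slide (14) as a fixed block, or with Bonferroni (10), and 1 with no mouse block. Without 1 mouse it was 0 to 5, and 0 without mouse 3, 4, 5, 8, 9 or 10. All 4 hold the smallest p the test allows, so that fewer pairs at that p raise the adjusted value. The deposited table gave no pairs, since the parents are not among its probes.

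The replicate numbers did not pair the myofibers: over 10 same-numbered pairs the correlation of deviations had a median of -0.03 across probes, and 1 was over 0.1. With the replicate block, 45 members, 19 Gapdh-linked and 5 Hmgn2-linked members and 0 pairs were called. Myofibers of the same slide were more alike: the correlation had a median of 0.115 over 42 pairs of myofibers, 27 of them over 0.1. Between slides it was -0.082 over 168, 6 of them over 0.1. Slides 3 and 4 held type 1 alone and slide 6 type 2B alone, and the main fit had no term for slide. With slide as a fixed block 52 members were called, 46 of them among the 50.

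No called member that is named reversed, over 751 values, while 142 of these lost the call. Reversals came in members that were not called. Gm13194 was at -0.0293 with unflagged spots missing, -0.25 within slide 5, -0.00514 in the deposited table and -0.0542 to 0.11 without 1 mouse (lowest without mouse 2), and Gm14439 at 0.19 within slide 2. The probes of Gm4963 were at -0.025 (mouse fixed), -0.13 and -0.00187 (means per mouse), -0.54, -0.12 and -0.18 (slide 5), and, at 1 of them, -0.0405 (mouse 5) to 0.19 without 1 mouse. The cause was not tested.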
